A study of Mus musculus with 24 samples.

Results

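The genes of placental calcium and iron transfer were followed through mouse gestation, chosen by symbol from the deposited table of gene read counts. They were 10 of the 55401 genes in that table, with 3 genes of calcium handling (*Trpv6*, *S100g* and *Atp2b1*) and 7 of iron handling (*Trf*, *Tfrc*, *Steap3*, *Slc11a2*, *Fth1*, *Slc40a1* and *Heph*). All 10 passed the filter on low counts in every comparison. PolyA RNA of the maternal-fetal interface (MFI), where the fetal placenta meets the maternal decidua, was sequenced from wild-type (WT) mice and from mice lacking *C1qtnf6* (KO), on 4 gestation days (gd), from gd10.5 and gd14.5 in mid gestation to gd16.5 and then gd19.5 near term. Each genotype and stage had 3 libraries, which gave 24 libraries in 8 groups. The mice were on a C57BL/6 background, the KO line was made by CRISPR-Cas9 deletion of *C1qtnf6* exons, and the KO MFI came from homozygous animals. *C1qtnf6* encodes CTRP6, a hormone-like protein secreted by the placenta. The age of the dams of these libraries was not given in the sources used here, and the labels do not say whether libraries of a group came from separate litters, so the p-values measure the spread between these libraries, which may be technical.

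The placenta carries calcium and iron from maternal blood to the fetus, which needs most of both late in gestation. For calcium the textbook path has 3 steps, which are entry through an apical channel (TRPV6), buffering in the cytosol by calbindin-D9k (S100G) and extrusion at the basal side by plasma membrane calcium pumps such as PMCA1 (ATP2B1). Iron arrives on transferrin (TRF), is taken up with the transferrin receptor (TFRC), is reduced in endosomes by STEAP3 and leaves them through DMT1 (SLC11A2), after which it is stored in ferritin (FTH1 is the heavy chain) or exported by ferroportin (SLC40A1) with the help of a ferroxidase such as hephaestin (HEPH).

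Total counts per library lay between 20975717 and 37383108, and 3 counts, below which a gene was not called detected, stood for 0.0773 to 0.149 CPM (read counts scaled to a common library size). *C1qtnf6* lay between 64.7 and 168 CPM in the WT libraries and between 0.034 and 2.05 CPM in the KO libraries, so that all KO libraries were below all WT libraries of their stage. A group of 7 libraries stood apart by their markers of yolk sac endoderm, the absorptive and secretory lining of a fetal membrane next to the placenta. The summed level of 12 such markers (*Afp*, *Apoa1*, *Ttr* and others) was 1380 to 22800 CPM in these 7 libraries and 44.6 to 524 CPM in the other 17. They were WT replicate 1 and KO replicates 1, 2 and 3 at gd10.5, and WT replicate 1 and KO replicates 1 and 2 at gd16.5. Those of gd16.5 were also the libraries of that stage with RNA of Y-linked genes. Their Y-linked sums were 89.1, 194 and 188 CPM, beside 0.486 to 1.14 CPM in the others of gd16.5. Yolk sac RNA and Y-linked RNA cannot be told apart at that stage. At gd10.5 only KO replicate 2 had such RNA, with a Y-linked sum of 71 CPM, beside 0.0373 to 0.311 CPM in the others of gd10.5. Values that rest on the 7 libraries are given below with and without them, and with the summed yolk sac marker level as a covariate. Without them, only WT replicates 2 and 3 were left at gd10.5, and WT replicates 2 and 3 and KO replicate 3 at gd16.5. In such bulk samples fewer cells of a type and less RNA per cell cannot be told apart.

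Per kilobase of exon, the order of the members changed over gestation. In WT at gd10.5 the ferritin heavy chain gene *Fth1* had the highest level, 272 ± 33.2 CPM per kb (SD, n = 3), followed by *Tfrc* at 94.9 ± 24.1. At gd19.5 *Tfrc* was first at 362 ± 65.4 CPM per kb, with *S100g* at 337 ± 80.2 and *Fth1* at 213 ± 19.7. The libraries of *Tfrc* and *S100g* overlapped on this scale at gd19.5. *S100g* went from 25.2 ± 31.7 to 337 ± 80.2 CPM per kb, and *Slc40a1* from 8.75 ± 1.48 to 63.9 ± 4.62 CPM per kb. *Trpv6*, at 0.507 ± 0.17 and 6.45 ± 0.832 CPM per kb, and *Heph*, at 0.698 ± 0.322 and 0.755 ± 0.104 CPM per kb, were low at both ends.

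In each genotype 4 to 7 of the 10 members changed in each of the first 2 steps between stages, and 0 to 2 in the last. In WT, 7 of 10 passed the edgeR test from gd10.5 to gd14.5 (adjusted p under 0.05, 54% of all 19299 genes tested), 6 higher (26.2% of all genes) and 1 lower (27.8%). From gd14.5 to gd16.5 the count was 6 of 10 beside 18.1% of all genes, 4 higher (9.71%) and 2 lower (8.36%). In edgeR none of the 10 passed from gd16.5 to gd19.5 in WT (4.64% of all genes, 1.97% higher and 2.67% lower). There 1 member had an unadjusted p under 0.05 (20.6% of all genes), and DESeq2 called 1 member among 1381 genes in all. From gd10.5 to gd19.5, 7 of 10 passed in WT (62.7% of all genes), 5 higher (30.5%) and 2 lower (32.2%). With an absolute log2 fold change over 1 also required, 4, 3, 0 and 5 members were left in these comparisons, beside 22.5%, 5.09%, 1.49% and 29.5% of all genes. In KO, 4 of 10 passed from gd10.5 to gd14.5 (51.1% of all genes), 4 higher (24.7%) and none lower (26.4%), and 7 of 10 from gd14.5 to gd16.5 (23.6%), 6 higher (12%) and 1 lower (11.6%). From gd16.5 to gd19.5 in KO 2 passed (5.97%), none higher (3.01%) and 2 lower (2.96%), and over the whole span 6 (61.4%), 5 higher (29.8%) and 1 lower (31.6%). With the fold limit 2, 5, 1 and 4 members were left in KO, beside 20.1%, 8.61%, 2.19% and 28.8% of all genes. With 10 members each gene weighs 10% of such a share, and the shares of the comparisons from gd10.5 lay near the background. The median log2 fold change of the 10 members in WT was 0.72, 0.69 and -0.11 for the successive steps, beside -0.02, -0.02 and -0.01 over all genes.

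**Figure D1:**
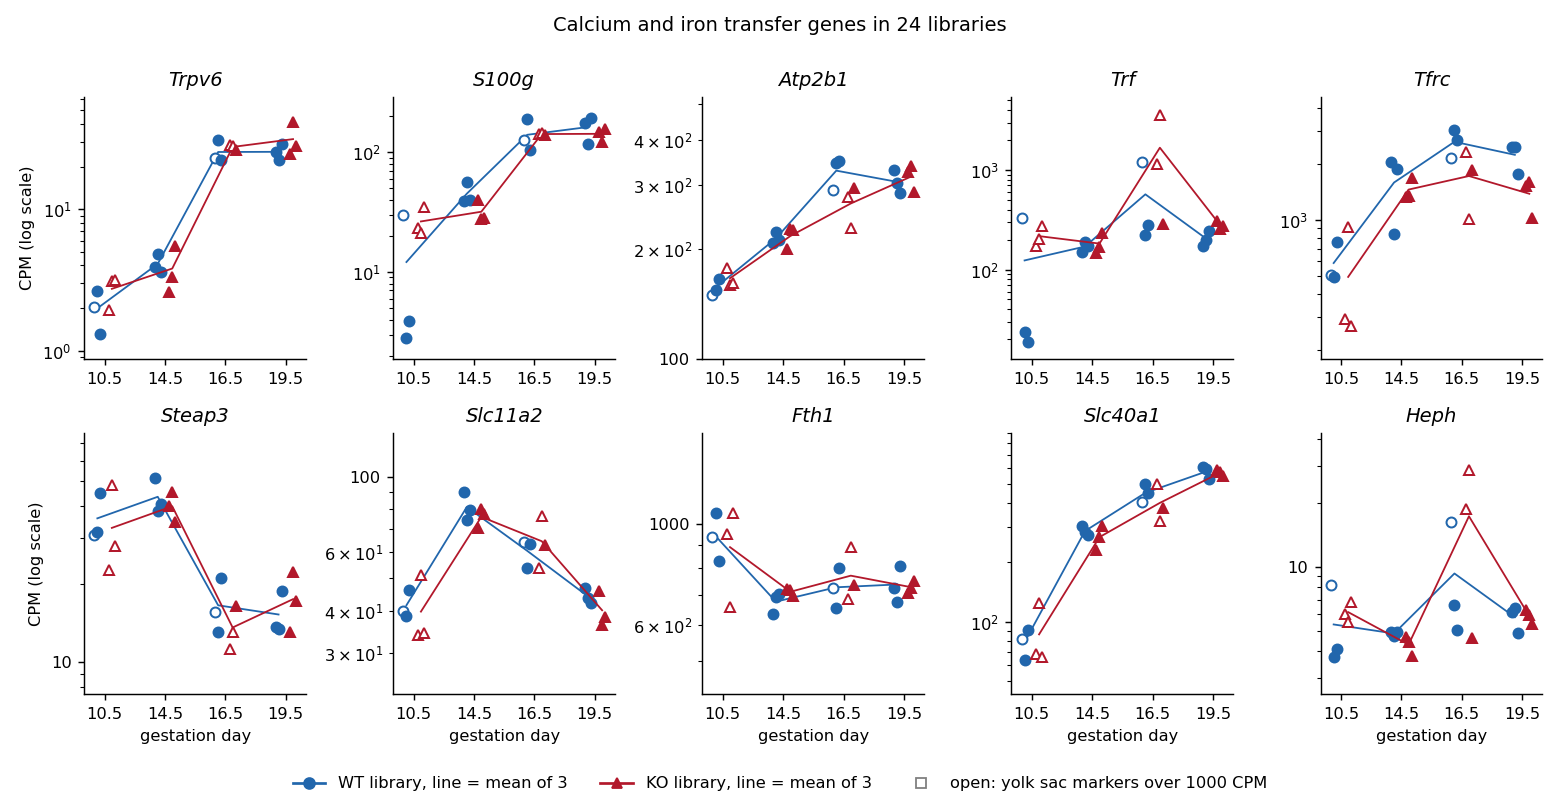
CPM of each member (log scale) against gestation day, with 1 point per library, circles and blue lines for WT, triangles and red lines for KO, lines joining the means of 3 libraries, and open symbols for the 7 libraries with yolk sac markers over 1000 CPM. *Trpv6* steps up between gd14.5 and gd16.5 in both genotypes, *Slc40a1* climbs at each stage, and the high *Trf* and *Heph* points at gd16.5 are all open symbols.

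The calcium members shared their direction, and the first promoter bases of *Trpv6* and *S100g* are shown because these genes moved together. *Trpv6* (ENSMUSG00000029868) lies at chr6:41620624-41636405 on the minus strand and *S100g* (ENSMUSG00000040808) at chrX:162961992-162964599 on the minus strand, in GRCm38. The 250 bases before each start (RefSeq, GRCm38.p6, chr6:41636406-41636655 and chrX:162964600-162964849, written 5′ to 3′ along the gene) have in capitals each match to AGGTCA, a hexamer bound by many nuclear receptors, or to its reverse complement TGACCT.
Trpv6 promoter: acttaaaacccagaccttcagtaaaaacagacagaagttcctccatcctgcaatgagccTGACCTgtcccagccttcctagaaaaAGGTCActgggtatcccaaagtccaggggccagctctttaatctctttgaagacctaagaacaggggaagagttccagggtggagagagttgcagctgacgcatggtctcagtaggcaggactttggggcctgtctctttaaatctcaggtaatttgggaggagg
S100g promoter: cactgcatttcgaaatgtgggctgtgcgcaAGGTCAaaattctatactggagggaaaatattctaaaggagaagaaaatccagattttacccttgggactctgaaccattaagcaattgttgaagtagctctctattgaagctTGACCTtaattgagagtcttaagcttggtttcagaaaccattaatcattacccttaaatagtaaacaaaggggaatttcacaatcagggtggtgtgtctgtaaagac
In *Trpv6* the hexamer began 165 bases before the start on the gene's strand and 191 on the other strand, and in *S100g* it began 220 and 107 bases before the start. It was searched on both strands and is found in 14% of the 32851 promoters of the same source and length. The letters TATAAA (12.4% of promoters) and AGTTCA (11.8%) were searched likewise and did not occur in either window. A match of letters is a description of the sequence and not a binding site.

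*Trpv6*, the calcium entry channel, rose late and steeply. At gd10.5 the WT libraries (replicates 1, 2 and 3, in this order throughout) were at 2.03, 2.64 and 1.31 CPM and the KO libraries at 1.94, 3.12 and 3.15 CPM. At gd14.5 they were at 3.92, 4.83 and 3.57 CPM in WT and at 2.61, 3.30 and 5.51 CPM in KO. The ranges of the genotypes overlapped at both stages, and all 3 WT libraries of gd14.5 were above those of gd10.5. At gd16.5 the levels were 23.1, 30.6 and 22.3 CPM in WT and 28.5, 28.0 and 26.0 CPM in KO. At gd19.5 they were 25.4, 22.1 and 28.7 CPM in WT and 24.4, 41.2 and 28.1 CPM in KO. All 12 libraries of the later stages were thus above all 12 of the earlier stages. The log2 fold change from gd14.5 to gd16.5 was 2.62 ± 0.259 (SE) in WT, a 6.13-fold rise (edgeR, adjusted p = 1.88e-06), and 2.87 ± 0.262 in KO, a 7.30-fold rise (adjusted p = 4.88e-07). The earlier step was 1.02 ± 0.280 in WT (adjusted p = 0.00468) and did not pass in KO (0.46 ± 0.277, adjusted p = 0.175). From gd16.5 to gd19.5 the values were 0.00 ± 0.237 in WT and 0.18 ± 0.235 in KO, with adjusted p of 0.998 and 0.698. In the order of the 8 group means, the 4 later groups, 25.3 to 31.2 CPM, overlapped from neighbour to neighbour, as did the 4 earlier ones, 1.99 to 4.11 CPM.

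*S100g*, the cytosolic calcium carrier, rose in 2 steps in WT, and its level at gd10.5 differed between libraries of the same group. At that stage WT replicate 1 was at 29.6 CPM while replicates 2 and 3 were at 2.81 and 3.89 CPM, and the KO libraries were at 23.3, 21.2 and 34.7 CPM. The 4 high libraries were the 4 with yolk sac markers over 1000 CPM. At gd14.5 the levels were 39.3, 55.9 and 39.9 CPM in WT and 39.9, 27.6 and 28.0 CPM in KO. At gd16.5 they were 126, 189 and 104 CPM in WT and 141, 144 and 140 CPM in KO, and at gd19.5 176, 118 and 192 CPM in WT and 148, 122 and 157 CPM in KO. All libraries of the later stages were above all libraries of the earlier ones. From gd10.5 to gd14.5 the log2 fold change was 1.90 ± 0.527 in WT (edgeR, adjusted p = 0.00499) and 0.27 ± 0.505 in KO (adjusted p = 0.682). Without WT replicate 1 of gd10.5 the WT value was 3.77, and in a fit of the 6 libraries of both groups alone it was 1.91 (adjusted p = 0.058). With the yolk sac markers as a covariate the values were 2.32 (adjusted p = 0.00032) in WT and 1.05 (adjusted p = 0.0955) in KO.

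*S100g* lies inside *Ctps2*, a gene of the other strand, but shares no exon base with it. Its second step, from gd14.5 to gd16.5, was 1.63 ± 0.505 in WT (adjusted p = 0.0294) and 2.15 ± 0.515 in KO (adjusted p = 0.00515), a 3.10-fold and a 4.45-fold rise. The WT call was lost without WT replicate 1 or 3 of gd14.5 or WT replicate 2 of gd16.5, with values of 1.35 to 1.55 and adjusted p of 0.102 to 0.112. Without the yolk sac libraries the step was 1.70 in WT (adjusted p = 0.000133). The KO value was 2.14, with only KO replicate 3 of gd16.5 left. With the covariate the values were 1.32 (adjusted p = 0.0379) in WT and 1.38 (adjusted p = 0.0671) in KO. The last step was 0.22 ± 0.490 in WT and 0.01 ± 0.490 in KO, and neither passed. Over the whole span *S100g* rose by 3.74 ± 0.557 in WT (adjusted p = 8.28e-06) and 2.43 ± 0.522 in KO (adjusted p = 0.000461). The WT value was 5.62 (adjusted p = 9.13e-10) without the yolk sac libraries, and no KO library of gd10.5 was left. With the covariate the values were 3.99 (adjusted p = 5.18e-07) in WT and 3.02 (adjusted p = 2.15e-05) in KO. Its 4 later group means, 139 to 162 CPM, overlapped from neighbour to neighbour and did not overlap the next, WT gd14.5 at 45.0 ± 9.43 CPM.

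*Atp2b1* (ENSMUSG00000019943, chr10:98914406-99026143, plus strand), the plasma membrane calcium pump PMCA1, had the smallest change of the calcium members and the least spread. It was at 150, 155 and 166 CPM in WT and 178, 160 and 162 CPM in KO at gd10.5, and at 208, 223 and 212 CPM in WT and 200, 227 and 226 CPM in KO at gd14.5. All libraries of gd14.5 were above all of gd10.5. At gd16.5 the levels were 292, 346 and 349 CPM in WT and 279, 229 and 294 CPM in KO, and at gd19.5 330, 304 and 286 CPM in WT and 326, 338 and 287 CPM in KO. The WT steps were 0.45 ± 0.0976 (adjusted p = 0.000703) and 0.62 ± 0.0977 (adjusted p = 0.000192), and the last value was -0.10 ± 0.0973 (adjusted p = 0.603). In KO they were 0.39 ± 0.0976 (adjusted p = 0.00278), 0.30 ± 0.0975 (adjusted p = 0.0333) and 0.25 ± 0.0974 (adjusted p = 0.137). The KO call from gd14.5 to gd16.5 was lost without KO replicate 1 or 2 of gd14.5 or KO replicate 1 or 3 of gd16.5 (0.23 to 0.33, adjusted p of 0.058 to 0.145), without the expression filter (0.27, adjusted p = 0.1) and in the fit of the 6 libraries alone (0.30, adjusted p = 0.0688). The first KO step was 0.25 with the yolk sac covariate (adjusted p = 0.053).

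Iron members moved in both directions. Several of them, *Tfrc*, *Fth1*, *Slc40a1* and a transcript form of *Slc11a2*, are known to carry iron-responsive elements, RNA hairpins through which iron regulatory proteins act on translation or on mRNA stability. Such hairpins found in mRNA sequences of the GENCODE annotation are shown because counts of polyA RNA show this regulation only in part. The search required 5 pairs next to a loop of CAGTGN and 3 more below a bulge, and it matched 3 of the 10 members. It is strict, and a member without a match, such as *Slc11a2*, can still carry an element. Capitals mark the loop, and coordinates are in GRCm38.
Tfrc 3′ UTR, chr16:32631221-32631245, plus strand: ttatcggaagCAGTGCcttccataa
Tfrc 3′ UTR, chr16:32631600-32631624, plus strand: ttatcgggagCAGTGTcttccataa
Tfrc 3′ UTR, chr16:32631665-32631689, plus strand: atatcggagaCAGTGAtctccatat
Tfrc 3′ UTR, chr16:32631712-32631736, plus strand: ttatcgggaaCAGTGTttcccataa
Fth1 5′ UTR, chr19:9982734-9982758, plus strand: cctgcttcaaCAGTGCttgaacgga
Slc40a1 5′ UTR, chr1:45925467-45925491, minus strand: acttcagctaCAGTGTtagctaagt
The *Tfrc* hairpins are in 1 of its 3 coding transcripts, that of *Fth1* in 4 of 5 and that of *Slc40a1* in 1 of 4. Of 21877 protein-coding genes searched, 36 (0.165%) have such a hairpin.

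*Trf* (ENSMUSG00000032554, chr9:103204001-103230444, minus strand), the iron carrier of plasma, is also made by yolk sac endoderm, and its level followed the yolk sac libraries. At gd10.5 it was at 328, 23.5 and 18.9 CPM in WT and 171, 203 and 276 CPM in KO. The 2 WT libraries without the markers were thus at most 23.5 CPM, while the 4 with them were at 171 CPM or more. At gd14.5, where no library had markers over 1000 CPM, *Trf* was at 149, 189 and 173 CPM in WT and 145, 170 and 232 CPM in KO. At gd16.5 it was at 1210, 220 and 280 CPM in WT and 1140, 3600 and 290 CPM in KO, and the 3 libraries over 1000 CPM were again those with the markers. At gd19.5 it was at 174, 198 and 245 CPM in WT and 306, 258 and 272 CPM in KO. Across the 24 libraries the deviations of *Trf* from its group means had a Pearson correlation of 0.97 with those of the marker sum, which comes from the same libraries and normalization. As measured, none of the WT steps passed (0.46 ± 0.841, 1.74 ± 0.861 and -1.47 ± 0.855, with adjusted p of 0.663, 0.173 and 0.348).

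Without the yolk sac libraries *Trf* rose in WT by 3.00 from gd10.5 to gd14.5 (adjusted p = 1.09e-08), by 0.56 from gd14.5 to gd16.5 (adjusted p = 0.0358) and by 3.27 over the whole span (adjusted p = 1.79e-09). Leaving out WT replicate 1 of gd10.5 alone gave 3.01 (adjusted p = 0.00365) and 3.28 (adjusted p = 0.00148). With the covariate the first step was 1.70 (adjusted p = 1.06e-05) and the whole span 1.45 (adjusted p = 2.56e-05), while the step from gd14.5 to gd16.5 was 0.20 and did not pass (adjusted p = 0.615). These values were all upward and differed in size. In KO *Trf* passed from gd14.5 to gd16.5 (3.20 ± 0.910, a 9.20-fold rise, adjusted p = 0.0152). The value was 0.67 without the yolk sac libraries, with only KO replicate 3 of gd16.5 left. With the covariate it was 0.10 and the call was lost (adjusted p = 0.874). That call was also lost without KO replicate 1 or 2 of gd14.5 or KO replicate 2 of gd16.5, with values of 3.06, 3.15 and 1.98 and adjusted p of 0.0612 to 0.129. The fall from gd16.5 to gd19.5 in KO, -2.59 ± 0.886, did not pass (adjusted p = 0.0861), and passed without KO replicate 3 of gd16.5 (-3.09, adjusted p = 0.0499), in DESeq2 (-2.58, adjusted p = 0.0339) and without the expression filter (-2.59, adjusted p = 0.0254). Without the yolk sac libraries it was -0.05. From gd10.5 to gd14.5 the KO value was -0.25 ± 0.839 as measured and 1.96 with the covariate (adjusted p = 2e-05), while no KO library of gd10.5 is left without the yolk sac libraries. The genes *Gm20425* and *Trf* overlap on the same strand, with 98% identity over 2150 bases, and *Gm20425* is not analysed here.

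**Figure D2:**
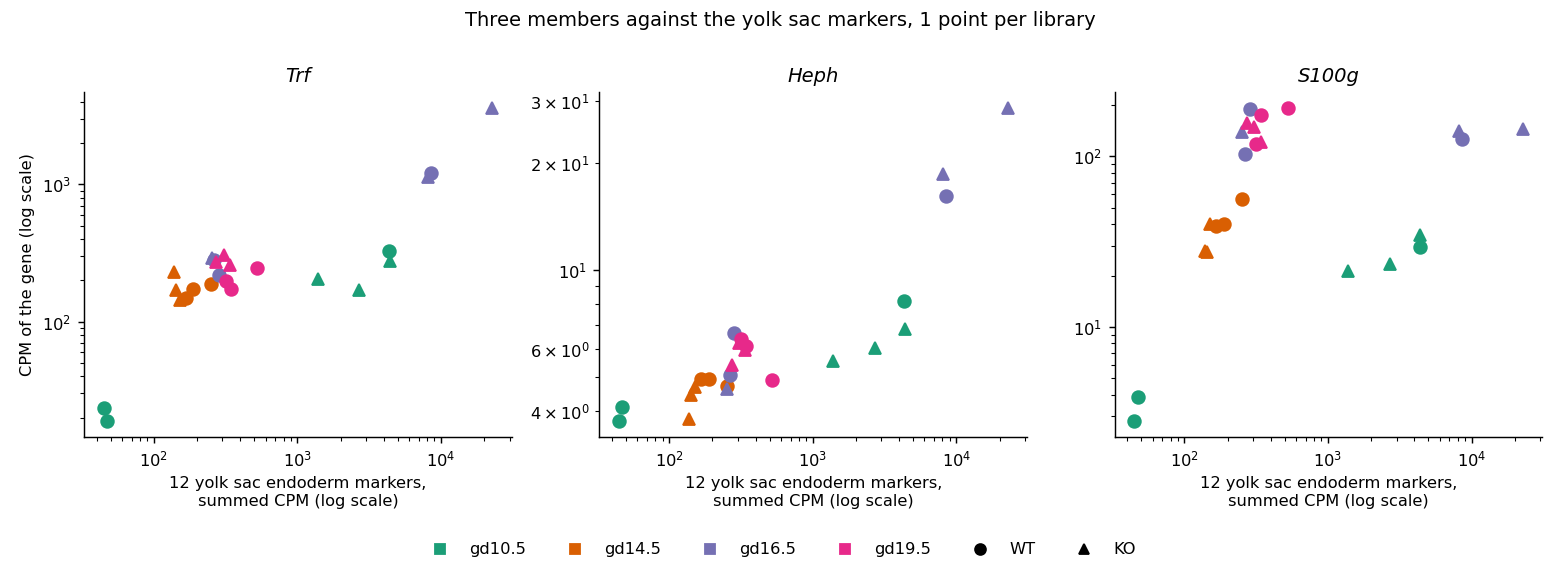
CPM of *Trf*, *Heph* and *S100g* (log scale) against the summed CPM of 12 yolk sac endoderm markers (log scale), with 1 point per library, colour for the stage, circles for WT and triangles for KO. The 3 highest points of *Trf* and of *Heph* are the 3 libraries of gd16.5 with marker sums of 8110 to 22800 CPM, and *S100g* at gd10.5 splits into 2 low and 4 high libraries along the same axis.

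*Tfrc* (ENSMUSG00000022797, chr16:32608920-32632794, plus strand), the transferrin receptor, was among the most abundant members and rose early. At gd10.5 it was at 507, 494 and 759 CPM in WT and 292, 922 and 268 CPM in KO. At gd14.5 it was at 2060, 840 and 1870 CPM in WT and 1330, 1350 and 1690 CPM in KO. All WT libraries of gd14.5 were above all WT libraries of gd10.5, and the same held in KO, although WT replicate 2 of gd14.5 was below KO replicate 2 of gd10.5. The first step was 1.44 ± 0.408 in WT (2.71-fold, adjusted p = 0.00584) and 1.56 ± 0.409 in KO (2.94-fold, adjusted p = 0.00361). At gd16.5 the levels were 2150, 3050 and 2700 CPM in WT and 2310, 1010 and 1850 CPM in KO. At gd19.5 they were 2480, 2470 and 1770 CPM in WT and 1520, 1600 and 1030 CPM in KO, and every KO library was below every WT library. The later steps did not pass in either genotype, with values of 0.73 ± 0.402 and -0.23 ± 0.400 in WT and 0.24 ± 0.400 and -0.31 ± 0.400 in KO. Without the yolk sac libraries the WT step from gd14.5 to gd16.5 was 0.86 (adjusted p = 0.0469). Over the whole span *Tfrc* rose by 1.93 ± 0.414 in WT (adjusted p = 0.000431) and 1.49 ± 0.408 in KO (adjusted p = 0.00371).

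*Steap3* (ENSMUSG00000026389, chr1:120190757-120272705, minus strand), the endosomal ferrireductase, fell between gd14.5 and gd16.5, when *Trpv6* and *S100g* rose. It was at 31.0, 31.9 and 44.8 CPM in WT and 22.7, 48.2 and 28.0 CPM in KO at gd10.5, and at 51.4, 38.2 and 40.9 CPM in WT and 39.9, 45.2 and 34.8 CPM in KO at gd14.5. The genotypes and the 2 stages overlapped. At gd16.5 the levels were 15.6, 13.0 and 21.0 CPM in WT, and 11.2 and 13.0 CPM in KO replicates 1 and 2 with replicate 3 between WT replicates 1 and 3. At gd19.5 they were 13.6, 13.4 and 18.7 CPM in WT and 13.0, 22.2 and 17.2 CPM in KO. All 12 later libraries were below all 12 earlier ones. *Steap3* fell by 1.40 ± 0.257 on the log2 scale in WT (adjusted p = 0.00079) and by 1.56 ± 0.259 in KO (adjusted p = 0.000264), which is 2.63-fold and 2.94-fold. Over the whole span it fell by 1.24 ± 0.257 in WT (adjusted p = 0.000323) and by 0.91 ± 0.255 in KO (adjusted p = 0.00416). The KO call over the whole span was lost without KO replicate 2 of gd10.5, where the value was -0.53 (adjusted p = 0.0511). That library also moved the KO value of the first step, from 0.28 to 0.66 (adjusted p = 0.0214).

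*Slc11a2* (ENSMUSG00000023030, chr15:100387898-100425072, minus strand), the endosomal iron transporter DMT1, was highest at gd14.5. At gd10.5 it was at 40.1, 38.5 and 46.1 CPM in WT and 33.9, 51.1 and 34.4 CPM in KO, and at gd14.5 at 90.1, 74.4 and 79.4 CPM in WT and 70.6, 80.1 and 77.3 CPM in KO. All libraries of gd14.5 were above all of gd10.5. At gd16.5 it was at 63.9, 53.7 and 63.2 CPM in WT and 53.7, 76.6 and 62.8 CPM in KO, and at gd19.5 at 46.9, 43.7 and 42.1 CPM in WT and 45.9, 36.3 and 38.3 CPM in KO. All libraries of gd19.5 were below all of gd16.5 and within the range of gd10.5. The first step was 0.97 ± 0.146 in WT (1.96-fold, adjusted p = 2e-05) and 0.93 ± 0.146 in KO (1.91-fold, adjusted p = 3.57e-05). The return passed in WT from gd14.5 to gd16.5, where it fell by 0.43 ± 0.145 (adjusted p = 0.0428), and in KO from gd16.5 to gd19.5, where it fell by 0.68 ± 0.146 (adjusted p = 0.0111). The differences between the genotypes in these steps, 0.19 ± 0.204 and -0.24 ± 0.206 (KO minus WT), did not pass (adjusted p of 0.839 and 0.619). In WT the last step was -0.45 ± 0.146 (adjusted p = 0.0842) and passed in DESeq2 (-0.45, adjusted p = 0.0462), in the fit of 6 libraries (-0.43, adjusted p = 0.0222) and without the yolk sac libraries (-0.41, adjusted p = 0.0382). From gd10.5 to gd19.5 the values were 0.09 ± 0.146 in WT and 0.01 ± 0.146 in KO.

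The WT call for *Slc11a2* from gd14.5 to gd16.5 was lost when WT replicate 1 or 3 of gd14.5 or any WT replicate of gd16.5 was left out (-0.35 to -0.47, adjusted p of 0.0691 to 0.179), and with the yolk sac covariate (-0.43, adjusted p = 0.062). The KO call was lost without KO replicate 2 of gd16.5 (-0.54, adjusted p = 0.0807) or KO replicate 2 of gd19.5 (-0.61, adjusted p = 0.0827). Of the exon bases of *Slc11a2*, 6.33% lie under *Gm5475* on the opposite strand, which had 1 to 26 counts per library.

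*Fth1* (ENSMUSG00000024661, chr19:9980598-9985098, plus strand), the ferritin heavy chain, was high throughout and fell early in WT. It was at 937, 1060 and 830 CPM in WT and 954, 658 and 1060 CPM in KO at gd10.5, and at 634, 693 and 701 CPM in WT and 722, 716 and 694 CPM in KO at gd14.5. KO replicate 2 of gd10.5 lay below the other 5 libraries of that stage, and it was the KO library with the highest *Tfrc* and *Slc40a1* there. Its junctional zone trophoblast markers summed to 22800 CPM, beside 2710 and 2850 CPM in the other KO libraries of gd10.5, and the part of this in the values was not tested. At gd16.5 *Fth1* was at 725, 654 and 802 CPM in WT and 684, 892 and 737 CPM in KO, and at gd19.5 at 725, 676 and 811 CPM in WT and 707, 726 and 749 CPM in KO. The first step fell by 0.48 ± 0.143 in WT (adjusted p = 0.00806), and the KO value was -0.33 ± 0.143 (adjusted p = 0.0635). Without KO replicate 2 of gd10.5 the KO value was -0.50 (adjusted p = 0.00126), and in DESeq2 with all libraries it was -0.34 (adjusted p = 0.0422). Over the whole span *Fth1* fell by 0.35 ± 0.143 in WT (adjusted p = 0.037), a call that was lost without WT replicate 1 or 2 of gd10.5 or WT replicate 1 or 2 of gd19.5 (-0.26 to -0.36, adjusted p of 0.0663 to 0.16). The KO value was -0.29 ± 0.143 (adjusted p = 0.0829) and -0.47 (adjusted p = 0.00181) without KO replicate 2 of gd10.5. The gene *Gm6977* is 90.5% identical to *Fth1* over 524 bases, so reads of these bases may not be assigned with certainty.

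*Slc40a1* (ENSMUSG00000025993, chr1:45908068-45926523, minus strand), which encodes ferroportin, the only known exporter of iron from cells, climbed from stage to stage. At gd10.5 it was at 81.9, 64.1 and 90.2 CPM in WT and 68.6, 124 and 65.9 CPM in KO, and at gd14.5 at 306, 283 and 274 CPM in WT and 231, 269 and 304 CPM in KO. At gd16.5 it was at 404, 498 and 446 CPM in WT and 499, 324 and 376 CPM in KO, and at gd19.5 at 605, 593 and 527 CPM in WT and 589, 570 and 547 CPM in KO. The 4 stages did not overlap, whatever the genotype. The steps in WT were 1.87 ± 0.200 (3.66-fold, adjusted p = 6.07e-07), 0.64 ± 0.194 (adjusted p = 0.0258) and 0.36 ± 0.193 (adjusted p = 0.311). In KO they were 1.64 ± 0.199 (3.11-fold, adjusted p = 2.69e-06), 0.58 ± 0.194 (adjusted p = 0.0366) and 0.51 ± 0.194 (adjusted p = 0.122). Over the whole span *Slc40a1* rose 7.30-fold in WT (2.87 ± 0.208, adjusted p = 7.4e-10) and 6.60-fold in KO (2.72 ± 0.206, adjusted p = 1.31e-09), more than the other iron members as measured. Its WT value without the yolk sac libraries was 2.90, below that of *Trf* at 3.27. The step from gd14.5 to gd16.5 was lost in WT without any WT replicate of gd14.5 or WT replicate 2 or 3 of gd16.5 (0.56 to 0.69, adjusted p of 0.0559 to 0.0944). It was lost in KO without KO replicate 1 or 2 of gd14.5 or KO replicate 1 of gd16.5 (0.39 to 0.58, adjusted p of 0.0928 to 0.208) and with the covariate (0.66, adjusted p = 0.0803). Without the yolk sac libraries the KO value was 0.49, with only KO replicate 3 of gd16.5 left.

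*Heph* (ENSMUSG00000031209, chrX:96455359-96574485, plus strand), the membrane ferroxidase that works with ferroportin, was low in most libraries. At gd10.5 it was at 8.19, 3.75 and 4.10 CPM in WT and 6.01, 5.52 and 6.81 CPM in KO, and at gd14.5 at 4.92, 4.70 and 4.92 CPM in WT and 4.66, 4.43 and 3.79 CPM in KO. At gd16.5 it was at 16.2, 6.63 and 5.06 CPM in WT and 18.7, 28.6 and 4.60 CPM in KO, and at gd19.5 at 6.09, 6.38 and 4.88 CPM in WT and 6.24, 5.93 and 5.38 CPM in KO. The 4 highest values were those of 4 libraries with the markers. The other libraries with the markers, those of KO at gd10.5, were at 5.52 to 6.81 CPM, close to the highest library without them (6.63 CPM). The within-group correlation with the marker sum was 0.91 over 24 libraries. No WT step passed. In KO *Heph* rose by 2.01 ± 0.457 from gd14.5 to gd16.5 (4.04-fold, adjusted p = 0.00359) and fell by 1.57 ± 0.451 from gd16.5 to gd19.5 (adjusted p = 0.0443). Without the yolk sac libraries, with only KO replicate 3 of gd16.5 left, these values were 0.10 and 0.35. With the covariate both calls were lost, at 0.46 (adjusted p = 0.3) and -0.31 (adjusted p = 0.549). The fall was also lost without KO replicate 1 or 2 of gd16.5 or any KO replicate of gd19.5, with values of -0.99 to -1.61 and adjusted p of 0.0833 to 0.286. In WT the value from gd10.5 to gd19.5 was 0.12 ± 0.455 as measured (adjusted p = 0.838) and 0.56 without the yolk sac libraries (adjusted p = 0.00525). In KO the value from gd10.5 to gd14.5 was -0.51 ± 0.456 as measured and 0.62 with the covariate (adjusted p = 0.0493). Processed pseudogenes lie within *Heph*, and 0.378% of its exon bases are shared with *Hsf3* on the other strand.

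**Figure D3:**
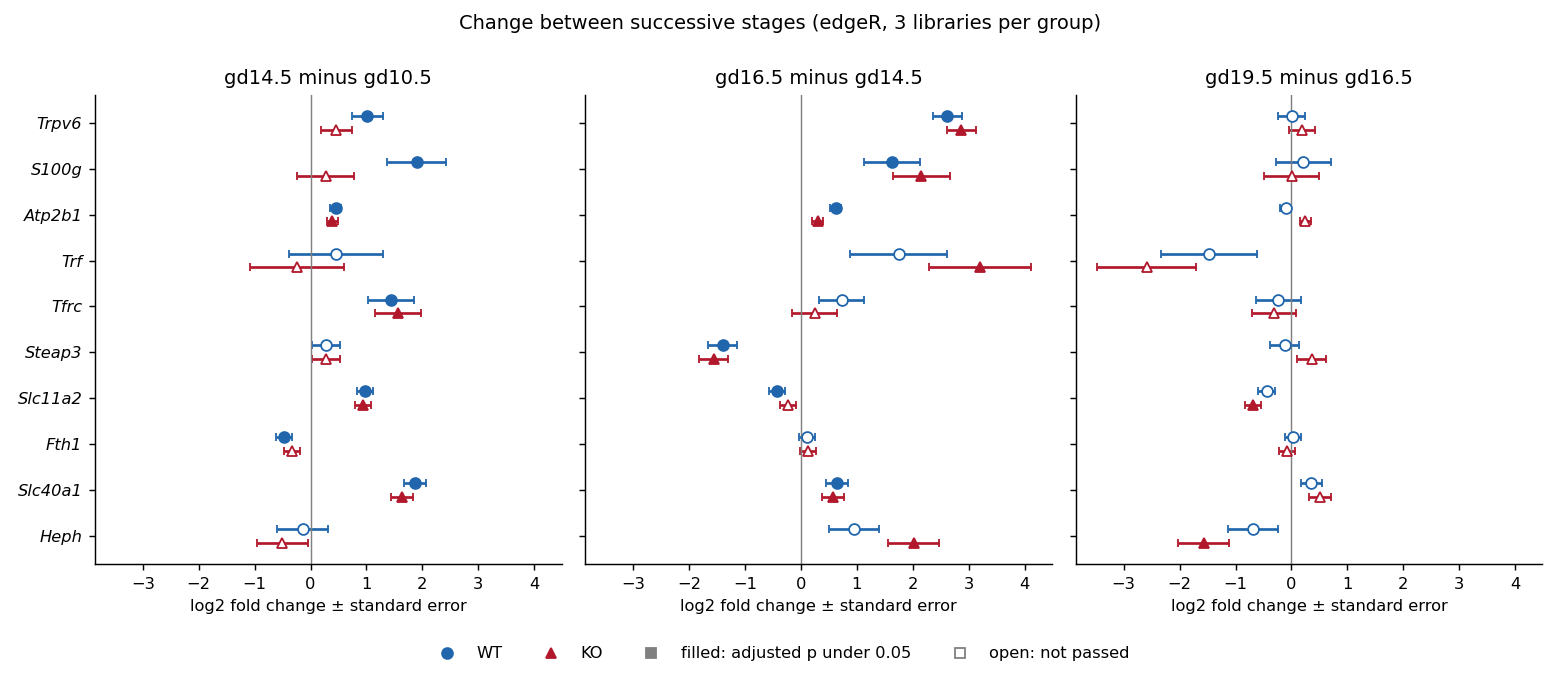
Log2 fold change between successive stages ± standard error (edgeR, 3 libraries per group) for each member, with circles for WT, triangles for KO, filled symbols for an adjusted p under 0.05 and open symbols otherwise. The middle panel holds the largest rise of *Trpv6* and the fall of *Steap3* in both genotypes, while the wide bars of *Trf* go with its spread between libraries of a group.

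KO and WT were compared at each stage to ask whether loss of *C1qtnf6* changed these genes at the MFI. None of the 10 members passed at any stage in the edgeR test. At gd10.5 the share of all genes called was 0.00572%, and no member had an unadjusted p under 0.05 (0.801% of all genes). At gd14.5 it was 0.0166%, and 1 member had an unadjusted p under 0.05 (6.78% of all genes), *S100g* at -0.51 ± 0.167 (adjusted p = 0.693). At gd16.5 it was 0.00586%, and 1 member did (11.1% of all genes), *Atp2b1* at -0.29 ± 0.119 (adjusted p = 0.445). At gd19.5 it was 0.115%, and 2 members did (13.5% of all genes), *Tfrc* at -0.72 ± 0.181 (adjusted p = 0.178) and *Trf* at 0.41 ± 0.124 (adjusted p = 0.23). DESeq2 called none of the members at the first 3 stages, where it called 2, 24 and 172 genes in all. At gd19.5 it called both *Tfrc* and *Trf*, among 204 genes in all. The median log2 fold change of the members was 0.11, -0.12, 0.07 and -0.03 over the 4 stages, beside 0.01, 0.00, 0.01 and -0.01 over all genes.

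The members whose KO and WT libraries did not overlap were few. At gd10.5 and gd16.5 there were none, while 1.83% and 8.11% of all genes were above in all KO libraries and 2.35% and 9.62% below. At gd14.5 all 3 KO libraries of *Heph* were below the WT libraries, 3.79 to 4.66 against 4.70 to 4.92 CPM, which 6.09% of all genes did in that direction. At gd19.5 *Tfrc* was below in KO, 1030 to 1600 against 1770 to 2480 CPM (8.58% of all genes), and *Trf* was above, 258 to 306 against 174 to 245 CPM (12.8% of all genes). *Tfrc* had 1380 ± 308 CPM in KO and 2240 ± 405 CPM in WT (SD, n = 3), a 1.65-fold difference. Its adjusted p was 0.178 in edgeR, 0.000831 in DESeq2 (-0.71) and 1.59e-11 without the expression filter (-0.72). Without the filter 675 genes passed at gd19.5, beside 20 with it. *Trf* had 279 ± 24.9 and 206 ± 36.2 CPM, with an adjusted p of 0.23 in edgeR, 0.0403 in DESeq2 (0.42) and 6.91e-05 without the filter (0.41). *S100g* at gd14.5, 31.8 ± 6.99 in KO and 45.0 ± 9.43 CPM in WT, had an adjusted p of 1.07e-07 without the filter, where 243 genes passed. Its value was -0.0021 with the yolk sac covariate. The marker sums of that stage, 167 to 251 CPM in WT and 138 to 151 CPM in KO, did not overlap. The covariate thus cannot be told apart from genotype there. With each library left out in turn, none of the members passed at any stage. At gd16.5 such fits also missed *C1qtnf6* itself without WT replicate 2 or 3 or KO replicate 1. Its values were -6.54, -6.38 and -6.25 (edgeR, adjusted p of 0.104, 0.121 and 0.177). The lack of calls at that stage therefore says little about smaller differences.

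The largest KO against WT values lay where yolk sac libraries were spread unevenly. At gd16.5 *Trf* was at 1680 ± 1720 CPM in KO and 571 ± 555 CPM in WT, a value of 1.56 ± 0.944 (adjusted p = 0.518), and *Heph* at 17.3 ± 12.1 and 9.29 ± 6.03 CPM, a value of 0.91 ± 0.650. Without the yolk sac libraries these values were 0.22 and -0.33, with 1 KO library left, and with the covariate 0.34 and 0.03. The yolk sac libraries of gd16.5 were also those with Y-linked RNA, and the parts of both cannot be told apart. At gd10.5 *S100g* had a value of 1.11 ± 0.873 and *Trf* of 0.80 ± 1.06, and 0.18 and -0.07 with the covariate. Without WT replicate 1 the *S100g* value was 3.00 (adjusted p = 0.119). All 3 KO libraries of gd10.5 had the markers, so at that stage genotype and the share of yolk sac RNA cannot be told apart once WT replicate 1 is set aside.

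**Figure D4:**
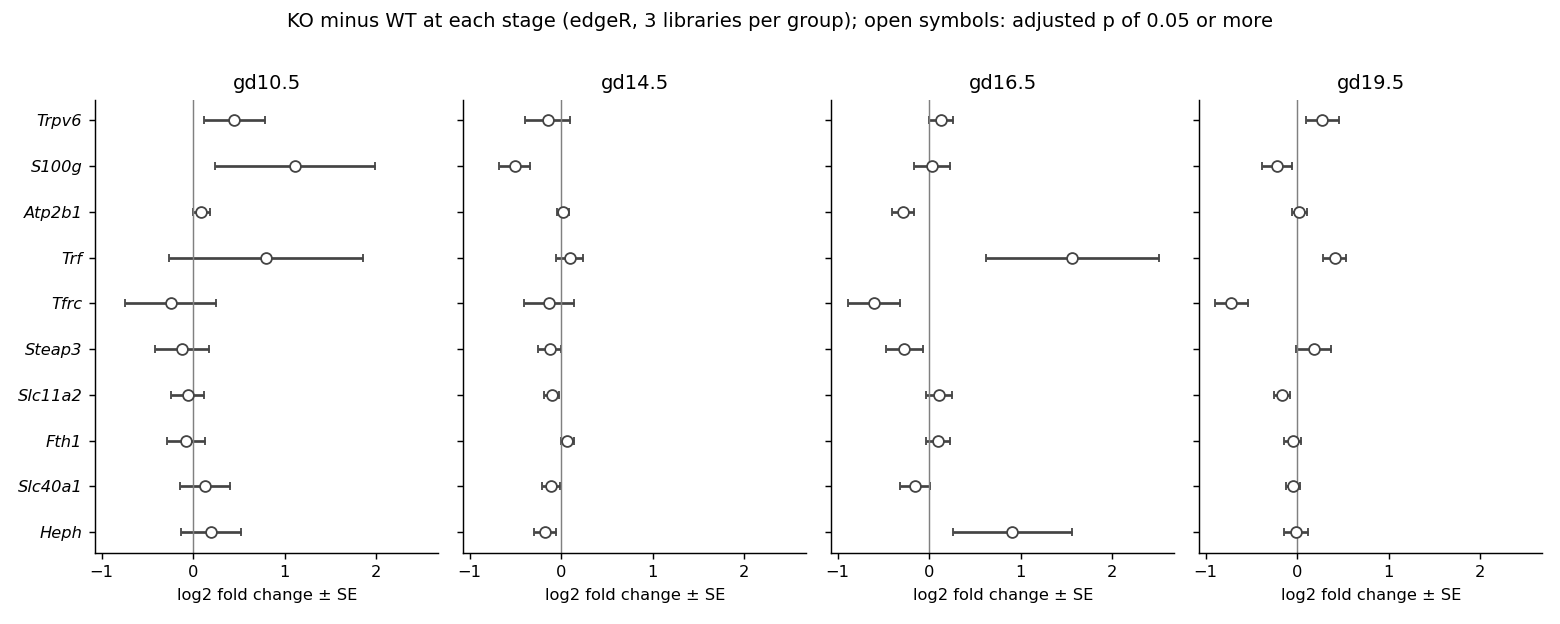
Log2 fold change of KO minus WT ± standard error (edgeR, 3 libraries per group) at each stage for the 10 members. All symbols are open because no adjusted p was under 0.05, and the longest bars are those of *S100g* and *Trf* at gd10.5 and *Trf* and *Heph* at gd16.5.

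Whether the stage changes differed between the genotypes was tested over all 24 libraries. None of the members passed for any of the 3 steps or for the joint test of genotype by stage, where 0% of all genes passed as well in edgeR. The joint test had an unadjusted p under 0.05 for 1 member, *Atp2b1* (0.0401, adjusted p = 0.681), and for 7.23% of all genes. The successive steps had such a p for 1 member each, beside 2.95%, 6.01% and 13.4% of all genes. DESeq2 called 35 genes in the joint test and none of the members. *Atp2b1* had a step difference of -0.32 ± 0.138 (KO minus WT) from gd14.5 to gd16.5 and of 0.35 ± 0.138 from gd16.5 to gd19.5, with adjusted p of 0.8 and 0.291. For *S100g* the first step differed by -1.63 ± 0.724 (adjusted p = 1). Without WT replicate 1 of gd10.5 that difference was -3.50 (adjusted p = 0.000622) and the joint test passed (adjusted p = 0.00215), but the remaining 2 WT libraries then had marker sums of 44.6 and 47.1 CPM and the 3 KO libraries 1380 to 4380 CPM.

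Some members shared a pattern only between groups, and others within groups too. The Pearson correlation of log2 CPM between *Trpv6* and *S100g* was 0.87 and between *Trpv6* and *Atp2b1* 0.91, but 0.06 and 0.03 once each library was set against its group mean. *Tfrc* and *Slc40a1*, the receptor and the exporter, had 0.87 over all libraries and 0.82 within groups. *Fth1* ran against them within groups, at -0.83 with *Tfrc* and -0.90 with *Slc40a1*. KO replicate 2 of gd10.5 stood apart from its group in all 3 genes. It was at 922 CPM for *Tfrc* (others 292 and 268), 124 for *Slc40a1* (68.6 and 65.9) and 658 for *Fth1* (954 and 1060). How far these correlations rest on that library was not tested. *Trf* and *Heph* had 0.83 over all libraries and 0.84 within groups. All points share the normalization, and the correlations are descriptions. Within groups, the summed markers of syncytiotrophoblast, the exchange layer of the labyrinth, had a correlation of 0.77 with *Tfrc*, 0.75 with *Slc40a1* and -0.77 with *Fth1*. This was not particular to that layer. With the same genes the values were 0.61, 0.68 and -0.69 for junctional zone trophoblast and 0.57, 0.65 and -0.70 for sinusoidal giant cells. For uterine and glandular epithelium they were 0.64, 0.66 and -0.68. Those of NK cells had -0.54, -0.82 and 0.74, those of uterine muscle -0.55, -0.72 and 0.73, and those of decidual stroma -0.58, -0.57 and 0.68. KO replicate 2 of gd10.5 stood apart in several of these sums too. It had 1270 CPM for syncytiotrophoblast (others of its group 814 and 799), 348 for NK cells (843 and 736) and 715 for uterine muscle (1320 and 1630). The syncytiotrophoblast sum lay between 799 and 2590 CPM over all libraries, with 10 of 11 markers detected in every library of each group. At gd16.5 it was 2060 to 2590 CPM in WT and 1220 to 2050 CPM in KO, every KO library below every WT library, and the *Tfrc* value there was -0.60 ± 0.287 (adjusted p = 0.464). All KO libraries were also below for 9.62% of all genes there. So they were in the sums of decidual stroma (3100 to 3460 against 3790 to 4320 CPM) and uterine muscle (482 to 588 against 615 to 844 CPM). They were above in that of junctional zone trophoblast (88500 to 95300 against 55700 to 74800 CPM). At gd19.5, where *Tfrc* was lower in all KO libraries, the syncytiotrophoblast sum was 1390 to 1820 CPM in WT and 1470 to 1750 CPM in KO. The part of tissue make-up in the *Tfrc* values was not tested.

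The genes most like each member over the 24 libraries, among the 19299 tested, had correlations of 0.894 to 0.996. *Slc40a1* was closest to *Trpm6* (0.996), a magnesium channel, *Ddah2* (0.993) and *Ank* (0.992). *Trpv6* was closest to *Aqp8* (0.973), a water channel, *Ccdc85a* (0.972) and *Apod* (0.972), and *S100g* to *Dmgdh* (0.967), *B3galt5* (0.953) and *Plxnb2* (0.952). *Atp2b1* was closest to *4931406P16Rik* (0.985), *Actn4* (0.982) and *Pdgfa* (0.982). For *Trf* they were *Ifi27l2b* (0.953), *Osbpl6* (0.937) and *Zfp385b* (0.932), and for *Heph* *Slc5a1* (0.960), a glucose transporter, *Opn3* (0.948) and *Fcgrt* (0.940), the neonatal Fc receptor. *Tfrc* was closest to *Gabrp* (0.943), *Myl4* (0.943) and *Plbd1* (0.939), *Steap3* to *Tuba1a* (0.942), *Gatd3a* (0.935) and *Usp17le* (0.934), *Slc11a2* to *Cdhr4* (0.943), *Fndc4* (0.941) and *Gnptg* (0.941), and *Fth1* to *Slco2b1* (0.905), *Il4ra* (0.896) and *Malt1* (0.894). Among the other members, the closest to *Slc40a1* and to *Trpv6* was *Atp2b1*, at 0.926 and 0.907.

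Other genes of calcium, iron and haem handling were taken from 7 lists of 89 genes, of which 86 were in the table and 74 were tested over 24 libraries. In WT, 18 rose and 22 fell from gd10.5 to gd14.5, beside 26.2% and 27.8% of all genes. From gd14.5 to gd16.5, 14 rose and 5 fell (9.71% and 8.36% of all genes), and from gd16.5 to gd19.5, 1 rose and 3 fell (1.97% and 2.67%). Over the whole span 25 rose and 23 fell (30.5% and 32.2% of all genes), with a median log2 fold change of -0.01. Of the other iron storage and chaperone genes, 6 of 7 were lower and none higher over the whole span in each genotype (median -0.39 in WT and -0.50 in KO), beside 32.2% of all genes lower in WT and 31.6% in KO. Other genes of calcium entry and extrusion were split, with 9 of 17 higher and 6 lower in WT.

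The largest changes in these lists were those of single genes. *Hephl1*, a paralog of *Heph* with ferroxidase activity, fell from 32.0 ± 11.7 to 1.47 ± 0.190 CPM between gd10.5 and gd14.5 in WT (SD, n = 3), by 4.43 on the log2 scale (edgeR, adjusted p = 4.34e-06). *Bmp2*, a ligand that drives hepcidin in liver and a decidual gene, fell from 58.1 ± 14.6 to 4.45 ± 0.487 CPM (adjusted p = 8.62e-06), and *Atp2b2*, another calcium pump, from 1.74 ± 0.738 to 0.110 ± 0.0578 CPM (adjusted p = 0.000233), which is at the limit of detection. From gd14.5 to gd16.5 *Cd163*, a scavenger receptor of macrophages for haemoglobin, rose from 0.135 ± 0.0501 to 1.09 ± 0.400 CPM (adjusted p = 0.000222). Its 2 to 7 counts per WT library of gd14.5 were near the limit of detection. *Itpr1*, a calcium release channel, rose from 35.2 ± 1.61 to 74.2 ± 8.70 CPM (adjusted p = 2.1e-05), and *Atp2a1* from 0.715 ± 0.146 to 1.54 ± 0.544 CPM (adjusted p = 0.0156). From gd16.5 to gd19.5 the calcium-permeable channel gene *Trpv2* fell from 120 ± 19.8 to 43.7 ± 2.88 CPM (adjusted p = 0.000151), the haem oxygenase gene *Hmox1* from 121 ± 11.5 to 84.7 ± 4.53 CPM (adjusted p = 0.0162), and the ferroxidase gene *Cp* rose from 29.6 ± 5.83 to 48.7 ± 5.84 CPM (adjusted p = 0.0313). *Hephl1*, *Atp2b2* and *Bmp2* also had the largest changes from gd10.5 to gd19.5.

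Between genotypes none of these genes passed at any stage, with 71, 69, 71 and 68 tested. The gene with the smallest p was *Ncoa4*, a ferritin receptor, at gd10.5 (-0.20 ± 0.0918, adjusted p = 1), *Slc25a37*, a mitochondrial iron importer, at gd14.5 (0.26 ± 0.0660, adjusted p = 0.566), *Tmprss6*, a protease that lowers hepcidin, at gd16.5 (0.93 ± 0.255, adjusted p = 0.407) and *Smad6* at gd19.5 (0.27 ± 0.0703, adjusted p = 0.187). *Tmprss6* had 2.15 ± 0.383 CPM in KO and 1.13 ± 0.300 CPM in WT. In all 4 cases the KO libraries did not overlap the WT libraries, with 4.18%, 12.5%, 17.7% and 21.4% of all genes doing so at the 4 stages.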

How the data were processed

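PolyA RNA of 24 MFI libraries was sequenced as paired reads with a stranded mRNA kit. Per the submitters' notes, reads were trimmed (Trim Galore 0.6.4), aligned to GRCm38 (STAR 2.7.3a) and counted per gene (featureCounts, Subread 2.0.0). The study's methods name default settings, which count both strands together, so reads from exon bases shared by genes of opposite strands cannot be told apart. The authors deposited raw counts in 1 table of 55401 genes. Groups came from the labels, and KO replicate numbers from the sample descriptions, since the KO titles count differently. The labels name the tissue MFI while the study's methods speak of placentae.

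Counts were filtered (minimum count 10, minimum total 15), TMM-scaled and fitted with edgeR 4.0.16 (quasi-likelihood) in R 4.3.3, using 6 libraries for KO against WT and a means model of all 24 for stages and interactions. Adjusted p (Benjamini-Hochberg over all genes tested) under 0.05 passed. CPM used the 24-library scaling, and correlations log2 CPM with a prior count of 2. On simulated data with 200 genes changed by a log2 fold change of 2, the KO against WT fit of gd16.5 recovered 97.5% (16 false calls in 16841 genes), WT gd16.5 against gd14.5 97% (6 in 18864) and their interaction 91.5% (13 in 18864). DESeq2 also recovered 97.5% in the gd16.5 simulation, with 42 false calls in 17071 genes. The changed genes had mean levels over 2 CPM, and the counts were drawn without differences in tissue make-up between libraries. Smaller changes, such as those of the members between KO and WT, and a share of yolk sac RNA were not simulated. The recovery therefore does not carry over to such changes in these data. Replicates differed beyond sampling noise, with chi-square per degree of freedom of 7.86 to 169 over 24 pairs. Alternatives were DESeq2 1.42.0 (the study's tool), RLE scaling, no filter, a fold limit, a replicate block, a Y-linked covariate, other sets of libraries and each library left out. The yolk sac covariate and the fit without yolk sac libraries were chosen after seeing the data.

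Members and lists were chosen with earlier results of these data known. Named were all members, *C1qtnf6*, per WT stage comparison up to 3 listed genes with the largest passing change, per genotype comparison those that passed or the smallest p, and the 3 genes most like each member. Promoters were found for 6 of 10 members. Figures were drawn with matplotlib 3.10.9, and paralogs were sought with BLAST 2.17.0.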

Additional observations from a re-analysis of the deposited data

How the results depend on the processing

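Of 720 member values with a single library left out, 629 kept their direction and side of the threshold, and of 950 values under the other alternatives 887 did. In all, 76 values changed sign, of which 75 had not passed as reported. The exception was *Heph* in KO from gd16.5 to gd19.5, at 0.35 without the yolk sac libraries. The causes were not tested. The lowest counts of a member in a library were 31 for *Trpv6*, 92 for *S100g* and 97 for *Heph*, and 3 libraries per group limit every comparison.

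The number of members that passed between KO and WT was 1 at gd14.5 without the expression filter, and at gd19.5 it was 2 without the filter, 2 in DESeq2 and 1 with the replicate block. With an absolute log2 fold change over 1 required, it was 4 in WT from gd10.5 to gd14.5, 3 in WT from gd14.5 to gd16.5, 2 in KO from gd10.5 to gd14.5 and 1 in KO from gd16.5 to gd19.5. In WT from gd16.5 to gd19.5 it was 1 in the fit of 6 libraries, 1 in DESeq2 and 1 without the yolk sac libraries. In KO from gd14.5 to gd16.5 it was 3 with the yolk sac covariate. In KO from gd16.5 to gd19.5 it was 1 in the fit of 6 libraries and 1 with the covariate. Counts without the yolk sac libraries are not given for these KO steps, which then rest on a single KO library of gd16.5. With a single library left out it ranged from 3 to 5 in WT and from 4 to 7 in KO from gd14.5 to gd16.5, from 0 to 3 in KO from gd16.5 to gd19.5, and from 0 to 1 for both the first interaction step and genotype by stage.

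The replicate block paired libraries of the same number. Their deviations correlated at -0.46 to 0.41 over 12 pairs, 5 of them over 0.1, and the labels name no pairs. At gd19.5 the correlations were 0.10, 0.04 and 0.11, so whether those libraries are paired is not settled. With the replicate block *Tfrc* at gd19.5 was at -0.73 (adjusted p = 0.0141), *Slc11a2* in WT from gd14.5 to gd16.5 at -0.43 (adjusted p = 0.0602), *Slc40a1* in KO for that step at 0.58 (adjusted p = 0.0513) and *S100g* in KO from gd16.5 to gd19.5 at -0.0022, and 14 of 24 libraries were closest to one of their own number, from 1 of 6 at gd10.5 to 6 of 6 at gd19.5.

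Signs that changed between KO and WT at gd10.5 with the yolk sac covariate were those of *Trf* (-0.07), *Tfrc* (0.05), *Steap3* (0.11), *Slc11a2* (0.02) and *Heph* (-0.32). With the Y-linked covariate they were those of *Fth1* (0.13) and *Slc40a1* (-0.24), at 0.10 and -0.22 without KO replicate 2, the only library of gd10.5 with Y-linked RNA. At gd16.5 they were *Trpv6* (-0.01), *S100g* (-0.05) and *Heph* (-0.33) without the yolk sac libraries and *Heph* (-0.10) with the Y-linked covariate. At gd19.5 they were *Fth1* (0.06) with the yolk sac covariate and *Heph* in the fit of 24 libraries (0.01) and in DESeq2 (0.00034). Between stages, *Heph* in WT was at 0.31 from gd10.5 to gd14.5 without the yolk sac libraries and at -0.02 from gd10.5 to gd19.5 with the covariate. *Trpv6* in WT from gd16.5 to gd19.5 was at -0.01 without the filter, -5.6e-05 in DESeq2 and -0.07 without the yolk sac libraries. With the covariate *Trf* and *Heph* in KO from gd10.5 to gd14.5 were at 1.96 and 0.62, and *Heph* from gd10.5 to gd19.5 at 0.77. In KO *S100g* from gd16.5 to gd19.5 was at -0.01 in the fit of 6 libraries, and *Slc11a2* from gd10.5 to gd19.5 at -0.00011 without the filter.

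With a single library left out, values between KO and WT at gd10.5 ranged from -1.06 to 0.06 for *Tfrc*, -0.49 to 0.09 for *Steap3*, -0.28 to 0.04 for *Slc11a2*, -0.22 to 0.10 for *Fth1*, -0.22 to 0.30 for *Slc40a1* and -0.01 to 0.66 for *Heph*. At gd14.5 they ranged from -0.48 to 0.06 for *Trpv6*, -0.02 to 0.07 for *Atp2b1*, -0.12 to 0.23 for *Trf*, -0.44 to 0.11 for *Tfrc* and -0.23 to 0.02 for *Steap3*. At gd16.5 they ranged from -0.14 to 0.31 for *S100g*, -0.04 to 0.22 for *Slc11a2* and -0.02 to 0.17 for *Fth1*, and at gd19.5 from -0.02 to 0.09 for *Atp2b1*, -0.03 to 0.37 for *Steap3*, -0.11 to 0.04 for *Fth1* and -0.11 to 0.06 for *Heph*. In WT they ranged from -0.05 to 3.01 for *Trf* and -0.35 to 0.31 for *Heph* from gd10.5 to gd14.5, from -0.09 to 0.56 for *Heph* from gd10.5 to gd19.5, and from gd16.5 to gd19.5 from -0.10 to 0.16 for *Trpv6*, -0.29 to 0.09 for *Steap3* and -0.06 to 0.10 for *Fth1*. In KO they ranged from -0.02 to 0.52 for *Tfrc* from gd14.5 to gd16.5, from gd16.5 to gd19.5 from -0.07 to 0.34 for *Trpv6*, -0.07 to 0.11 for *S100g* and -0.16 to 0.03 for *Fth1*, and from gd10.5 to gd19.5 from -0.09 to 0.23 for *Slc11a2* and -0.13 to 0.02 for *Heph*.

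Over all genes the number called between KO and WT moved from 1 to 2 (DESeq2) at gd10.5. At gd14.5 it moved from 3 to 243 (no filter), 1 (replicate block), 6 (Y-linked covariate), 1 (24 libraries) and 24 (DESeq2). At gd16.5 it moved from 1 to 114, 8, 2 and 172 under no filter, the Y-linked covariate, 24 libraries and DESeq2, and to 9 with the yolk sac covariate. At gd19.5 it moved from 20 to 4 (fold limit), 675 (no filter), 70 (replicate block), 4 (Y-linked covariate), 1 (24 libraries), 204 (DESeq2) and 2 (yolk sac covariate). The fold limit left 4337, 982, 287 and 5695 genes in WT of 10430, 3486, 896 and 12106 for the 3 steps and the whole span, and 3883, 1662, 422 and 5566 in KO of 9865, 4554, 1153 and 11852. In WT from gd16.5 to gd19.5 the count was 1381 (DESeq2), 1359 (covariate) and 1821 (without yolk sac libraries). In KO it was 6479 in the fit of 6 libraries for the first step, 1954 (covariate) for the second, and 1783 (DESeq2) and 510 (covariate) for the last. The interactions moved from 0 to 1 (DESeq2) for the first step, 1 (DESeq2) and 1 (no filter) for the second, 96 (DESeq2) and 11 (no filter) for the last, and 35 (DESeq2) and 1 (covariate) for genotype by stage.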

Other observations

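Cell type markers also shifted over gestation in WT. From gd10.5 to gd14.5, where 26.2% of all genes tested rose and 27.8% fell, 9 of 10 markers of junctional zone trophoblast, the endocrine layer of the placenta, rose and none fell, as did 4 of 5 of sinusoidal giant cells, while 6 of 10 tested for syncytiotrophoblast rose and 1 fell. All 7 markers of NK cells, the lymphocytes of the early decidua, fell, and of decidual stroma 8 of 10 fell and 2 rose. Of endothelium 0 rose and 3 of 6 fell, and of yolk sac endoderm 0 rose and 2 of 12 fell. Erythroid cells had 5 of 16 higher and 7 lower, macrophages 2 of 10 higher and 2 lower, uterine and glandular epithelium 3 of 9 higher and 1 lower, uterine muscle 3 of 6 higher and 1 lower, and the Y-linked genes 0 of 4 in either direction. Between KO and WT none of these markers passed at any stage except 1 of yolk sac endoderm, lower in KO at gd19.5. *Synb*, a syncytin of syncytiotrophoblast, was at 0 in all 3 WT libraries of gd10.5 and of gd19.5. The part of these shifts in the values of the transfer genes was not tested.

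Of the other calcium, iron and haem lists over the whole span in WT, where 30.5% of all genes were higher and 32.2% lower, calcium hormones and receptors had 3 of 10 higher and 2 lower, iron uptake and reduction 1 of 13 higher and 3 lower, iron export and oxidation 3 of 6 higher and 1 lower, iron regulators 5 of 12 higher and 3 lower, and haem handling 4 of 9 higher and 2 lower.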
